A study of Mus musculus with 17 samples.

Results

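The genes described here encode the pore-forming and auxiliary subunits of voltage-gated calcium channels. They are a list of 10 genes, taken from 55450 genes counted: 8 genes for pore-forming α1 subunits (Cacna1a, Cacna1b, Cacna1c, Cacna1d, Cacna1e, Cacna1g, Cacna1h and Cacna1i) and 2 for α2δ subunits (Cacna2d1 and Cacna2d2). They were chosen by name, with earlier results of these data known. All 10 passed the filter on low counts that left 17615 genes to test. Levels are given in CPM, read counts scaled to a common library size.

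Voltage-gated calcium channels open when a neuron depolarizes and let calcium in, which triggers transmitter release, shapes firing and signals to the nucleus. The α1 subunit forms the pore and sets the channel type, whereas the α2δ and β subunits carry the pore to the membrane and modify its gating. T-type channels open near the resting potential and promote burst firing, and in the hippocampus they have long been studied in models of temporal lobe epilepsy. α2δ subunits are the binding site of gabapentin and pregabalin, which are used against seizures and pain.

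RNA-seq was performed on hippocampi of mice, 1 library per sample. The epileptic sgLacZ group (6 libraries) and the epileptic sgKcna1 group (6 libraries) came from adult C57BL/6J mice of both sexes that had received kainic acid in the right amygdala, a trigger of status epilepticus that leaves spontaneous seizures behind. The control sgLacZ group (5 libraries) came from adult sham mice without epilepsy, whose strain the methods do not give separately. All 3 groups carried AAV9 vectors in the right ventral hippocampus encoding dCas9-VP64, an activator of transcription fused to Cas9 that cannot cut DNA, under a doxycycline-dependent promoter, and all were fed doxycycline. A Camk2a promoter drove the transactivator and so biased the activator towards excitatory neurons, while RNA was taken from tissue with all its cell types. The guide was either sgLacZ, directed at a bacterial gene, or sgKcna1, directed at the promoter of the potassium channel gene Kcna1. Per the methods, epileptic mice with rare seizures were left out. The labels list the samples without stating that each came from a different mouse, so P values measure the spread between these samples. Sham mice given sgKcna1 were not analysed here.

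Reads in genes ranged from 11839240 to 28311328 per library. A pair of libraries stood apart. Epileptic sgLacZ replicate 4 had the smallest share of unmapped reads (11.0%) and was the highest of its group for 9 of the 10 genes. Epileptic sgKcna1 replicate 12 had the largest share (41.5%) and the highest Kcna1. Within the epileptic sgLacZ group the share was 11.0%, 15.8%, 17.2%, 19.5%, 23.8% and 24.1% in replicates 4, 7, 9, 6, 8 and 5. Cacna1h, Cacna1g and Cacna1c, described below, fell from library to library in that same order. The order itself was not tested, and fits with the share as a covariate are given below. Replicates 8 and 5 lay within the control range of 19.5% to 27.7%. By group, the share of unmapped reads had a median of 23.1% in control sgLacZ, 18.3% in epileptic sgLacZ and 22.3% in epileptic sgKcna1 libraries. Males, identified from Y-linked counts, made up 3 of 5, 2 of 6 and 4 of 6 libraries in the same order. Kcna1 itself ranged from 25.5 to 44.0 CPM in control sgLacZ, from 16.9 to 56.7 in epileptic sgLacZ and from 13.9 to 133 in epileptic sgKcna1 libraries, with overlapping groups (edgeR adjusted P = 0.706 between the epileptic groups), so the libraries labelled sgKcna1 were not set apart by the targeted gene. Its median was 34.6 CPM in control sgLacZ, 27.6 in epileptic sgLacZ and 19.1 in epileptic sgKcna1 libraries. In the sgKcna1 group every library but replicate 12 had at most 29.5 CPM. Hippocampal markers were present throughout, the summed level of 6 dentate granule cell genes lying between 347 and 551 CPM in every library.

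Levels of the 10 genes were first ranked in control sgLacZ libraries, as CPM per kilobase of the longest annotated transcript. Cacna2d1, the α2δ-1 subunit, was the most abundant with 21.0 ± 0.483 CPM per kb (SD, n = 5). Cacna1a, the pore of P/Q-type channels at fast synapses, followed with 11.5 ± 1.18 CPM per kb (SD, n = 5). Next came Cacna1e, the pore of R-type channels, with 5.74 ± 0.753 CPM per kb (SD, n = 5). A middle range held Cacna1c, an L-type pore, at 4.95 ± 0.279, the T-type pore Cacna1i at 4.19 ± 0.591 and Cacna1b, the N-type pore, at 4.09 ± 0.446 CPM per kb (SD, n = 5 for each). The lowest levels per kb were those of the T-type pore Cacna1g (3.15 ± 0.384), Cacna2d2, encoding α2δ-2 (2.29 ± 0.615), the T-type pore Cacna1h (2.10 ± 0.746) and the L-type pore Cacna1d (1.52 ± 0.262). In this order the ranges over libraries did not overlap between Cacna2d1 and Cacna1a, or between Cacna1a and Cacna1e, whereas from Cacna1e downwards each gene overlapped the next. The length used changed the order: per kb of coding sequence Cacna1i ranked above Cacna1c, and Cacna2d2 above Cacna1g. By that length the control ranges of Cacna1a (10.8 to 14.3 CPM per kb) and Cacna1e (8.61 to 11.9) overlapped.

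Promoter sequence is shown for Cacna1e and Cacna2d1, the genes with the smallest P value in the comparisons described next among those with an entry in the table of RefSeq promoters (GRCm38.p6). Of the 10 genes, 7 had an entry, and Cacna1a, Cacna1g and Cacna1h did not. Each covers 300 bases around an annotated start, 5′ to 3′ on the gene's strand. The Cacna1e sequence lies at chr1:154725871-154726170 on the minus strand, and that of Cacna2d1 at chr5:15934441-15934740 on the plus strand. Both stretches lie inside the span of their gene. Capitals mark GGGCGG or its reverse complement CCGCCC, the core of the GC box bound by Sp1 family factors.
Cacna1e: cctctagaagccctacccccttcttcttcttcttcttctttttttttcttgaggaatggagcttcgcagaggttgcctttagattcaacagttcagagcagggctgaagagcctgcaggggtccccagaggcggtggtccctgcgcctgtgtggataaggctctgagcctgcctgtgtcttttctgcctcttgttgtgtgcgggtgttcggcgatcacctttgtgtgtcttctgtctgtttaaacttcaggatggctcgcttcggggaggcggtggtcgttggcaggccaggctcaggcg
Cacna2d1: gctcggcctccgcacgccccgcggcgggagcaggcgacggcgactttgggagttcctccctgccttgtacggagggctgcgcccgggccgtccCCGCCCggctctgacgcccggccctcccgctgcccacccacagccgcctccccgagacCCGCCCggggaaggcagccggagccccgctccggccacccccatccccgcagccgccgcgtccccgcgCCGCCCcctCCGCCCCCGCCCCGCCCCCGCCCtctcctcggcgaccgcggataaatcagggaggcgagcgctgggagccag
The Cacna2d1 sequence had 80.0% G and C bases and 7 matches, some of them overlapping. The Cacna1e sequence had 55.3% and 0 matches, close in base composition to the median of 52.7% over 32851 promoters, 35.7% of which held at least 1 match. Neither held the CRE motif TGACGTCA, present in 1.79% of promoters on either strand. A match describes letters and does not show binding.

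The first comparison asked which of these genes differed in epileptic mice that received the control guide. Of the 10 genes, 3 rose in epileptic sgLacZ against control sgLacZ mice and none fell (edgeR quasi-likelihood test, adjusted P under 0.05). They were Cacna1e, the R-type pore, and a pair of T-type pores, Cacna1g and Cacna1h. Among all tested genes 11.0% were called, 7.26% as higher and 3.76% as lower. At an unadjusted P under 0.05, 7 of the 10 genes were higher and none lower, against 18.8% and 15.9% of all genes. The median log2 fold change of the 10 genes was 0.495, against 0.0201 over all tested genes. Because the list was chosen with earlier results of these data known, these values are set side by side for description only. In bulk tissue more RNA per cell and more cells of a type cannot be told apart.

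Cacna1h, the T-type channel Cav3.2, had the largest fold change. Control sgLacZ libraries had 7.58, 14.9, 22.4, 21.3 and 20.2 CPM (replicates 13, 14, 15, 16 and 23). Epileptic sgLacZ libraries had 101.2, 15.6, 42.2, 59.0, 26.1 and 58.9 CPM (replicates 4 to 9). Thus 5 of 6 epileptic sgLacZ libraries lay above every control, and replicate 5 lay inside the control range. Epileptic sgLacZ libraries averaged 50.5 ± 30.3 CPM (SD, n = 6) and controls 17.3 ± 6.14 (SD, n = 5), and the log2 fold change was 1.55 (SE 0.44, adjusted P = 0.0404 by edgeR). Without replicate 4 the epileptic mean was 40.3 ± 19.4 CPM (SD, n = 5), with a log2 fold change of 1.23 (edgeR adjusted P = 0.103). With a covariate for the share of unmapped reads the log2 fold change fell to 0.61 (edgeR adjusted P = 0.0937). The gene lies on chromosome 17 from 25374285 to 25436334 (GRCm38.p6) and overlaps Tpsg1 there. Both strand counts together were 1.16 times the unstranded count, and with them added the log2 fold change was 1.17 (edgeR adjusted P = 0.0360).

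Cacna1g, the T-type channel Cav3.1, showed a narrower spread. In control sgLacZ libraries it had 22.7, 23.4, 27.6, 28.6 and 29.9 CPM (replicates 13, 14, 15, 16 and 23). In epileptic sgLacZ libraries it had 70.9, 27.0, 40.5, 48.9, 30.8 and 42.2 CPM (replicates 4 to 9). Again replicate 5 alone was within the control range, and replicate 8 exceeded the highest control by under 1 CPM. Group means were 43.4 ± 15.6 CPM (SD, n = 6) and 26.4 ± 3.22 (SD, n = 5), respectively, and the log2 fold change was 0.72 (SE 0.19, adjusted P = 0.0347 by edgeR). It was 0.52 without replicate 4 (edgeR adjusted P = 0.0804) and 0.58 with a covariate for the share of unmapped reads (edgeR adjusted P = 0.0798). The gene spans chromosome 11 from 94408391 to 94474400.

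Cacna1e, the R-type channel Cav2.3, had its highest and lowest epileptic sgLacZ values in the same libraries as Cacna1g and Cacna1h. Control sgLacZ libraries held 58.8, 67.1, 77.9, 79.4 and 80.9 CPM (replicates 13, 14, 15, 16 and 23). Epileptic sgLacZ libraries held 194.7, 73.6, 134.1, 144.4, 98.0 and 125.6 CPM (replicates 4 to 9). Replicate 4 was highest, replicate 5 was inside the control range, and the other 4 lay above all controls. The mean rose from 72.8 ± 9.56 CPM (SD, n = 5) to 128.4 ± 41.5 (SD, n = 6), and the log2 fold change was 0.82 (SE 0.21, adjusted P = 0.0347 by edgeR). It was 0.66 without replicate 4 (edgeR adjusted P = 0.0862) and 0.52 with a covariate for the share of unmapped reads (edgeR adjusted P = 0.0742). The gene spans chromosome 1 from 154390806 to 154884785.

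**Figure D1:**
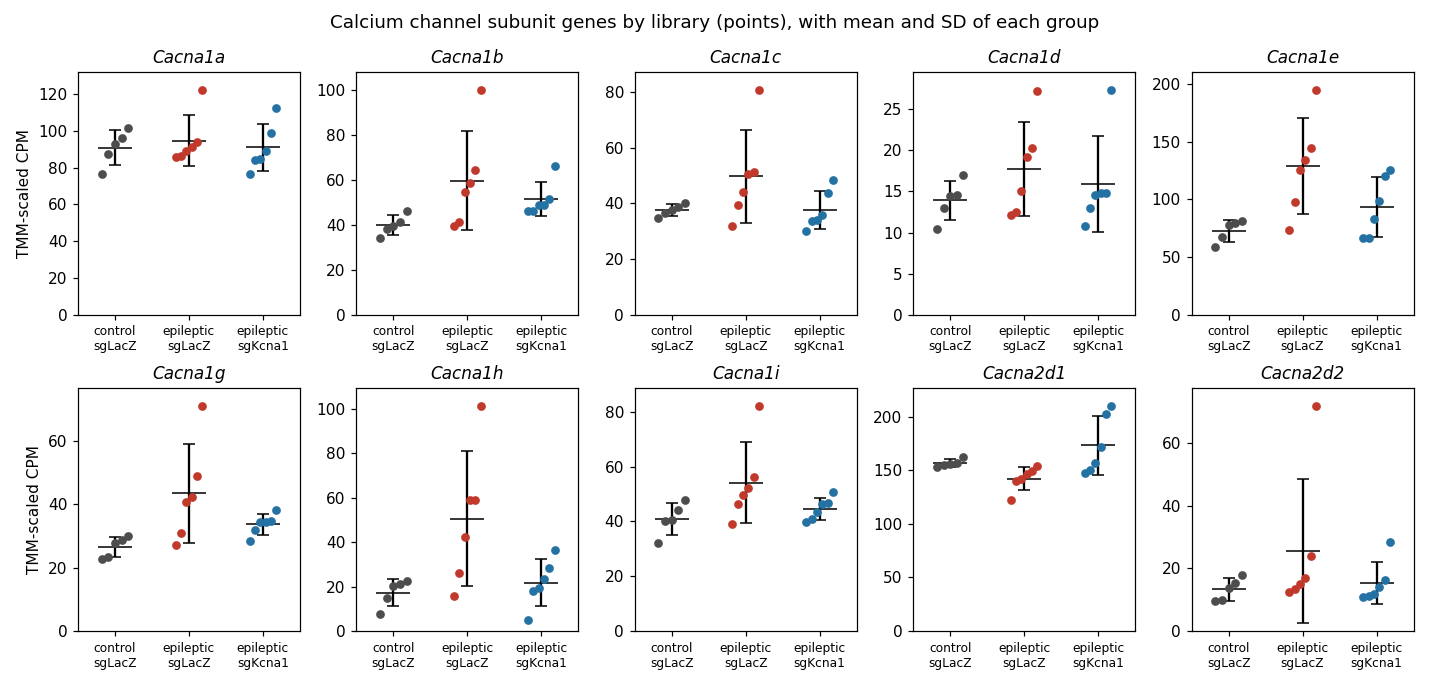
CPM of the 10 genes (vertical axes from 0, a scale per gene) in each library, shown as points by group, with bars for the mean and SD. For Cacna1e, Cacna1g and Cacna1h, 5 of the 6 epileptic sgLacZ libraries lie above every control sgLacZ library, while the epileptic sgKcna1 libraries overlap both other groups.

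The 3 calls depended on single libraries and covariates. In 17 fits that each left out 1 library, Cacna1e and Cacna1g were past the threshold in 9 and Cacna1h in 6, and all 3 stayed higher in every fit. None of the 10 genes was called in the 8 fits without epileptic sgLacZ replicate 4, 7 or 9 or without any 1 of the 5 controls, and up to 7 were called in the others. With epileptic sgLacZ replicate 4 and epileptic sgKcna1 replicate 12 left out together, a fit added after seeing the data, the 3 genes were past the threshold (edgeR adjusted P = 0.0238 for Cacna1e, 0.0216 for Cacna1g and 0.0230 for Cacna1h). With a covariate for sex none was (edgeR adjusted P = 0.0525, 0.0522 and 0.0589, respectively).

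**Figure D2:**
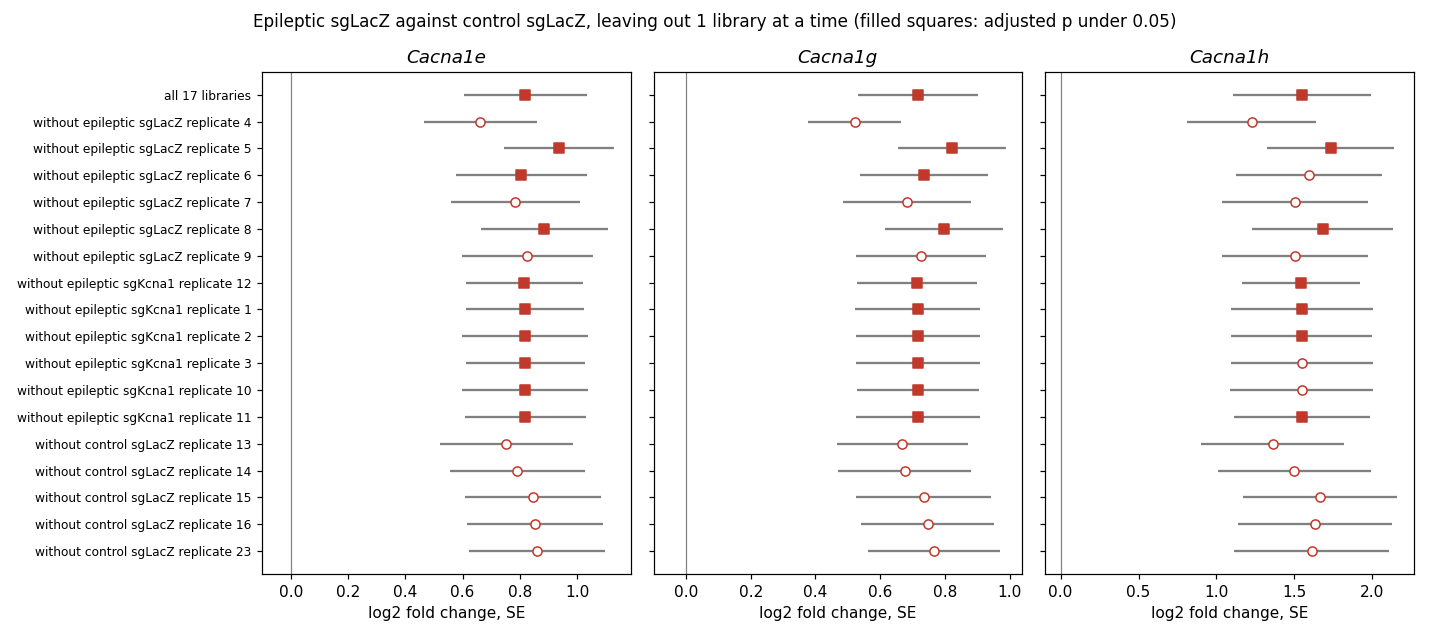
Log2 fold change of epileptic sgLacZ against control sgLacZ (horizontal axes, bars for the SE) of Cacna1e, Cacna1g and Cacna1h with all 17 libraries and with each library left out in turn. Filled squares mark an adjusted P under 0.05, found in 9, 9 and 6 of the 17 fits, and each estimate lies above 0.

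Among the other pores, Cacna1b, the N-type channel of presynaptic terminals, came closest to the threshold. Its level ranged from 34.3 to 46.2 CPM in control sgLacZ and from 39.4 to 99.9 CPM in epileptic sgLacZ libraries, 4 of 6 of which lay above all controls (log2 fold change 0.58, SE 0.19, edgeR adjusted P = 0.0511). It was past the threshold with strand counts added (adjusted P = 0.0478), with no filter on low counts (0.0482), with DESeq2 (0.0297) and with voom (0.00581), and in 3 of the 17 fits without 1 library. Cacna1i, the T-type channel Cav3.3, ranged from 32.3 to 47.7 CPM in controls and from 38.9 to 82.1 CPM in epileptic sgLacZ libraries (log2 fold change 0.41, SE 0.15, edgeR adjusted P = 0.0744). It was past the threshold in 1 of 9 fits with other settings and in 2 of the 17 fits without 1 library. The P/Q-type pore Cacna1a differed least, with 90.9 ± 9.38 CPM (SD, n = 5) in control sgLacZ and 94.7 ± 13.8 (SD, n = 6) in epileptic sgLacZ libraries, and its log2 fold change of 0.06 (SE 0.11, adjusted P = 0.739 by edgeR) became -0.027 without replicate 4.

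The L-type pores, which couple depolarization to gene transcription, did not pass the threshold in the main fit. Cacna1c ranged from 34.6 to 40.2 CPM in control sgLacZ and from 32.0 to 80.8 CPM in epileptic sgLacZ libraries (log2 fold change 0.41, SE 0.18, edgeR adjusted P = 0.119). It was past the threshold in 1 of 9 fits with other settings and in 1 of the 17 fits without 1 library. Cacna1d ranged from 10.5 to 17.02 CPM and from 12.1 to 27.2 CPM, respectively (log2 fold change 0.35, SE 0.23, edgeR adjusted P = 0.293). Over the 9 fits with other settings its log2 fold change ran from 0.0057 to 0.43, and none was past the threshold. Cacna1d overlaps other genes on chromosome 14, among them Chdh and Dcp1a, and its strand counts added up to 1.47 times the unstranded count, so its level is uncertain.

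The α2δ genes differed from each other in pattern. Cacna2d1 averaged 156.7 ± 3.61 CPM (SD, n = 5) in controls and 142.4 ± 10.8 (SD, n = 6) in epileptic sgLacZ libraries, 5 of 6 of which lay below all controls, yet the difference did not pass the threshold (log2 fold change -0.14, SE 0.099, edgeR adjusted P = 0.326). Cacna2d2 had 13.3 ± 3.57 CPM (SD, n = 5) and 25.6 ± 23.0 (SD, n = 6), respectively (log2 fold change 0.95, SE 0.41, edgeR adjusted P = 0.109). Its epileptic mean rested on replicate 4, with 71.9 CPM, and was 16.4 ± 4.61 CPM (SD, n = 5) without it.

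**Figure D3:**
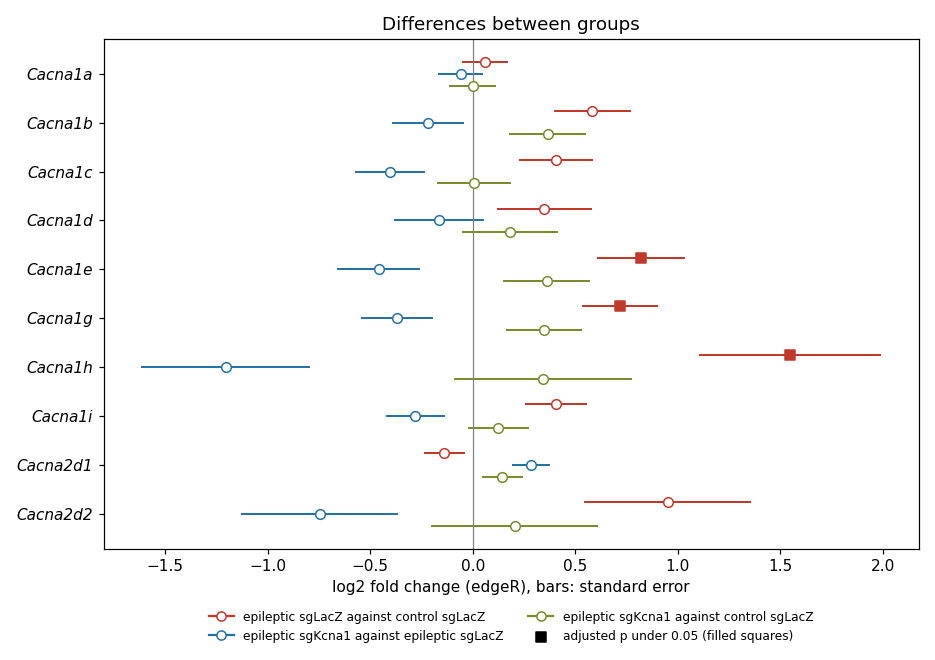
Log2 fold change (horizontal axis, bars for the SE) of the 10 genes in the 3 comparisons between groups. Filled squares mark an adjusted P under 0.05, reached by Cacna1e, Cacna1g and Cacna1h in epileptic sgLacZ against control sgLacZ mice. The comparisons share libraries, so their values are not independent.

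The make-up of the pore-forming transcripts was then described, as each gene's share of the summed CPM per kb of the 8 α1 genes. The T-type genes together made up 25.2% ± 2.60 (SD, n = 5) in control sgLacZ, 30.7% ± 3.45 (SD, n = 6) in epileptic sgLacZ and, in epileptic sgKcna1 libraries, 26.7% ± 1.92 (SD, n = 6). Epileptic sgLacZ libraries ranged from 26.4% to 34.8%, overlapping the control range of 21.5% to 27.7%. Of these, Cacna1h made up 5.55% ± 1.75 (SD, n = 5), 10.7% ± 3.65 (SD, n = 6) and 6.24% ± 2.82 (SD, n = 6) in the same order of groups. By mean level per kb it ranked 9 among the 10 genes in control sgLacZ, 5 in epileptic sgLacZ and 9 in epileptic sgKcna1 libraries. Per kb of coding sequence it ranked 9, 8 and 9. Cacna1a took 30.9% ± 3.19 (SD, n = 5) in control sgLacZ and 23.4% ± 5.05 (SD, n = 6) in epileptic sgLacZ libraries, although its CPM did not differ past the threshold. The L-type share was 17.5% ± 1.23 (SD, n = 5) in control sgLacZ and 15.8% ± 0.780 (SD, n = 6) in epileptic sgLacZ libraries.

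**Figure D4:**
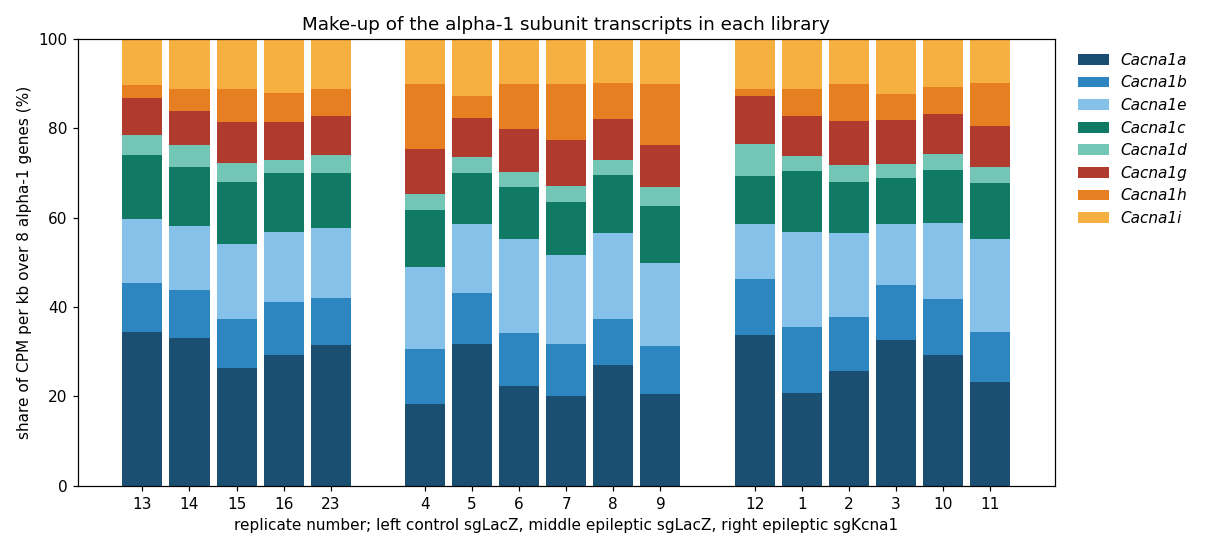
Share of each of the 8 α1 genes (vertical axis, percent of their summed CPM per kb) in each of the 17 libraries, a bar per library by replicate number. The Cacna1h segment is tallest in epileptic sgLacZ replicates 4 and 9 and smallest in epileptic sgKcna1 replicate 12, at 1.46%.

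The second comparison asked how the genes differed between epileptic mice with sgKcna1 and with sgLacZ. Not 1 of the 10 genes passed the threshold, nor did any of the 17615 genes (edgeR quasi-likelihood test, 0% called). At an unadjusted P under 0.05, 1 of the 10 genes was higher in epileptic sgKcna1 mice, Cacna2d1, and 4 were lower, Cacna1c, Cacna1e, Cacna1g and Cacna1h. The same was true of 8.69% of all genes in the higher and 10.5% in the lower direction. DESeq2 called 115 genes in all and limma voom with quality weights 12, none of them among the 10.

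Cacna1h had 5.04, 23.3, 28.3, 17.8, 19.5 and 36.5 CPM in epileptic sgKcna1 libraries (replicates 12, 1, 2, 3, 10 and 11). Replicate 12 was below every other library, and the remaining 5 overlapped both the control sgLacZ and the epileptic sgLacZ range. The mean of 21.8 ± 10.6 CPM (SD, n = 6) gave a log2 fold change of -1.21 against epileptic sgLacZ (SE 0.41, adjusted P = 0.213 by edgeR). Without epileptic sgLacZ replicate 5 it was past the threshold (log2 fold change -1.39, edgeR adjusted P = 0.0429), the 1 such fit among 17.

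Cacna1g was more even in this group, with 38.3, 34.5, 34.2, 31.7, 28.4 and 34.7 CPM (replicates 12, 1, 2, 3, 10 and 11). Of these libraries 5 of 6 lay above all controls and none above all epileptic sgLacZ libraries. Its log2 fold change was -0.37 against epileptic sgLacZ (SE 0.17, adjusted P = 0.258 by edgeR). Cacna1e had 66.4, 125.6, 98.6, 66.1, 83.2 and 120.2 CPM (same order of replicates). It was within the control range in replicates 12 and 3 and above it in the other 4, with a log2 fold change of -0.46 (SE 0.20, adjusted P = 0.239 by edgeR).

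Cacna2d1 had 173.2 ± 27.2 CPM (SD, n = 6) in epileptic sgKcna1 libraries, ranging from 147.6 to 210.0. Of these, 4 of 6 lay above all epileptic sgLacZ libraries, whose range was 122.7 to 153.7 CPM (log2 fold change 0.28, SE 0.094, edgeR adjusted P = 0.213). For Cacna1c the log2 fold change was -0.40 (SE 0.17, adjusted P = 0.231 by edgeR), with 30.2 to 48.3 CPM in epileptic sgKcna1 libraries. The log2 fold changes of the other 5 genes ran from -0.75 for Cacna2d2 to -0.06 for Cacna1a, and their edgeR adjusted P values from 0.281 to 0.768.

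The third comparison set epileptic sgKcna1 against control sgLacZ mice. No gene of the 10 passed the threshold, and none had an unadjusted P under 0.05, against 6.77% of all tested genes, of which 0% were called. Cacna1b was the exception in its ranges, since all 6 epileptic sgKcna1 libraries lay above all 5 controls. They ran from 46.285 to 66.3 CPM with a median of 48.7, against 34.3 to 46.2446 CPM with a median of 39.3 (log2 fold change 0.37, SE 0.19, edgeR adjusted P = 0.766). The gap between groups was under 0.1 CPM, and 0.562% of all genes had groups that did not overlap in this direction. The log2 fold changes of Cacna1e, Cacna1g and Cacna1h were 0.36 (SE 0.21), 0.35 (SE 0.19) and 0.34 (SE 0.43), and their edgeR adjusted P values ran from 0.766 to 0.863. The remaining 6 genes lay between -0.00065 and 0.20. DESeq2 called 36 genes and voom 71, none of them among the 10. Each comparison shares libraries with the other 2, so the values are given side by side only.

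The other subunits of the channel complex were taken from a list by family. Cacna1s and Cacna1f, pores of skeletal muscle and retina, had at most 12 and 8 counts in any library, and Cacng1, the muscle γ subunit, at most 7, and these 3 did not pass the filter. Of the β subunits, which bind the pore inside the cell, 1 of 4 rose in epileptic sgLacZ against control sgLacZ mice, as did 7.26% of all genes. Cacnb1 had 128.6 ± 22.7 CPM (SD, n = 6) against 95.7 ± 13.7 (SD, n = 5), with 4 of 6 libraries above all controls (log2 fold change 0.43, SE 0.13, edgeR adjusted P = 0.0489). Its call was lost with DESeq2's size factors and with a covariate for unmapped reads or for sex, and it was past the threshold in 3 of the 17 fits without 1 library. The log2 fold changes of Cacnb3, Cacnb2 and Cacnb4 were 0.34, 0.03 and -0.24, with edgeR adjusted P of 0.0950, 0.902 and 0.168. Strand counts of Cacnb4 added up to 1.23 times its unstranded count, so its level is uncertain.

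Of the γ family, several members of which are auxiliary subunits of AMPA receptors, 0 of 7 tested genes passed the threshold, while 2 were higher and 2 lower at an unadjusted P under 0.05. Over the β and γ families together, DESeq2 called 4 genes and voom 8. Cacng8 lay above all controls in 6 of 6 epileptic sgLacZ libraries, with 88.5 to 155.0 CPM against 57.1 to 84.3 CPM (log2 fold change 0.73, SE 0.25, edgeR adjusted P = 0.0609), as 2.00% of all genes did. Cacng7 had a log2 fold change of 0.68 (SE 0.23, adjusted P = 0.0554 by edgeR), and Cacng2, which encodes stargazin, of -0.53 (SE 0.19, adjusted P = 0.0669 by edgeR). For Cacng3, Cacng4, Cacng5 and Cacng6 the values were 0.31, -0.36, 0.54 and -0.79, and their edgeR adjusted P values lay between 0.126 and 0.435. Of the remaining α2δ genes, Cacna2d3 had a log2 fold change of 0.41 (SE 0.16, adjusted P = 0.0884 by edgeR) and Cacna2d4, with at most 89 counts, of 0.78 (SE 0.39, adjusted P = 0.160 by edgeR). None of these subunits passed the threshold in either comparison with epileptic sgKcna1 mice.

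Proteins that act with the channels were counted next. Of 19 genes for partners of the channel at release sites and in the membrane, 2 rose and 2 fell in epileptic sgLacZ against control sgLacZ mice, and the list had a median log2 fold change of 0.192. Over all tested genes 7.26% were called higher and 3.76% lower. Without epileptic sgLacZ replicate 4 no gene was called, and in the 17 fits without 1 library Erc1 was past the threshold in 3, Unc13a and Dpysl2 in 6 and Calm2 in 7. Unc13a, which primes synaptic vesicles, had a log2 fold change of 0.79 (SE 0.23, adjusted P = 0.0404 by edgeR) and Erc1, an active zone scaffold, of 0.71 (SE 0.22, adjusted P = 0.0463 by edgeR). Dpysl2, a protein of axon growth that binds N-type channels, fell by 0.89 (SE 0.26, adjusted P = 0.0409 by edgeR). Calm2, a gene for the calcium sensor calmodulin, fell by 0.53 (SE 0.15, adjusted P = 0.0399 by edgeR). Strand counts added up to 2.01 times the unstranded count for Erc1 and 1.15 times for Unc13a, so both levels are uncertain.

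Of 18 genes for calcium stores, pumps, exchangers and buffers, 5 rose in the same comparison and none fell, with a median log2 fold change of 0.316, against the same 7.26% of all genes called higher and 3.76% lower. These calls too were absent without epileptic sgLacZ replicate 4, 7 or 9 or without control replicate 13, 14, 16 or 23, where 0 genes were called in all. In the 17 fits without 1 library Atp2b2 was past the threshold in 4, Atp2a2 in 6, Slc8a2 and Ryr3 in 9 and Atp2b3 in 10. The plasma membrane pump Atp2b3 rose most, from 18.0 ± 2.31 CPM (SD, n = 5) to 68.6 ± 55.0 (SD, n = 6), with 5 of 6 libraries above all controls and replicate 5 below them (log2 fold change 1.93, SE 0.41, edgeR adjusted P = 0.0320). Another such pump, Atp2b2, had a log2 fold change of 0.50 (SE 0.15, adjusted P = 0.0438 by edgeR). The sodium-calcium exchanger Slc8a2 had 0.90 (SE 0.22, adjusted P = 0.0330 by edgeR) and Atp2a2, the pump that fills the endoplasmic reticulum, 0.60 (SE 0.17, adjusted P = 0.0404 by edgeR). Ryr3, a release channel of those stores, had a log2 fold change of 1.43 (SE 0.37, adjusted P = 0.0347 by edgeR), but its strand counts added up to 1.94 times the unstranded count. None of the partners or calcium-handling genes passed the threshold in the comparisons with epileptic sgKcna1 mice.

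**Figure D5:**
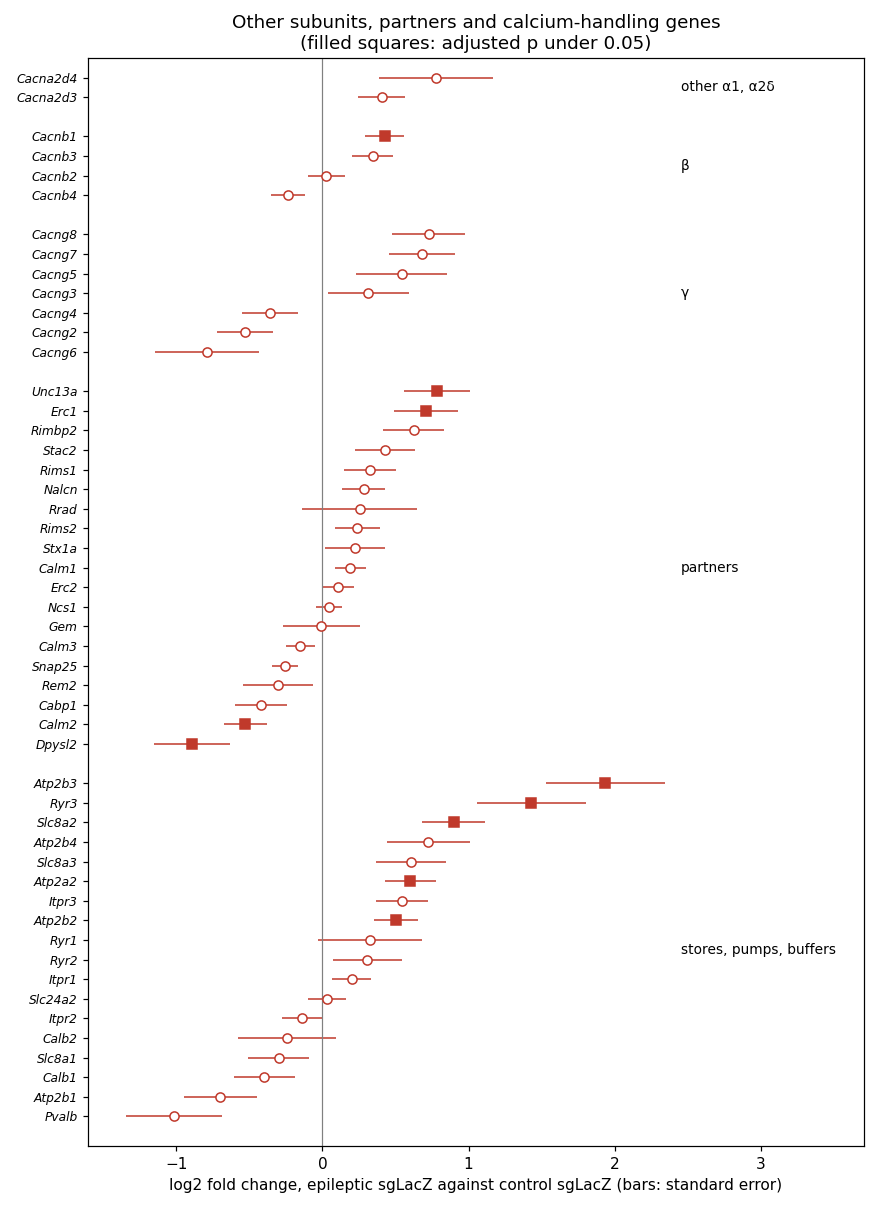
Log2 fold change of epileptic sgLacZ against control sgLacZ (horizontal axis, bars for the SE) for tested genes of the other α1 and α2δ, β and γ families, channel partners and calcium stores, pumps and buffers. Filled squares mark an adjusted P under 0.05, found for Cacnb1, 4 of 19 partners and 5 of 18 genes of stores, pumps and buffers.

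Some markers of cell types passed the threshold in epileptic sgLacZ against control sgLacZ mice. Among all tested genes 7.26% were called higher and 3.76% lower. The part of these markers in the results was not tested. All genes of these lists passed the filter on low counts. Of 6 excitatory neuron markers 1 rose, Slc17a7, the vesicular glutamate transporter, with a log2 fold change of 0.77 (SE 0.21, adjusted P = 0.0366 by edgeR). Neurod2 was lower and not called, with a mean of 250.6 CPM in epileptic sgLacZ and 310.4 in control sgLacZ libraries. The median log2 fold change of the excitatory list was 0.108. Of 8 interneuron markers 1 fell, Cck (log2 fold change -0.80, SE 0.24, edgeR adjusted P = 0.0426), while Pvalb and Sst had -1.01 and -0.80 (edgeR adjusted P = 0.0524 and 0.0505). Gad2 and Slc32a1 went the other way and were not called. Their means were 112.8 and 83.4 CPM in epileptic sgLacZ against 93.6 and 75.5 in control sgLacZ libraries. Gad1 had 312.3 against 339.1 CPM, and the median log2 fold change of the list was -0.452. The summed interneuron markers ranged from 2100 to 2590 CPM in control sgLacZ, from 1240 to 2470 in epileptic sgLacZ and from 1620 to 2390 in epileptic sgKcna1 libraries. Of 6 astrocyte markers 2 rose, Gfap and Aldh1l1 (log2 fold changes 0.60 and 0.33), and of 6 microglia markers 1, Csf1r (0.38). Other members of these lists had values below 0 that were not past the threshold, S100b -0.67 (edgeR adjusted P = 0.0656) among astrocyte markers, and Aif1 -0.32 and Cx3cr1 -0.27 (edgeR adjusted P = 0.357 and 0.422) among microglia markers, and the median of the microglia list was -0.127. Of 6 CA pyramidal cell markers Spink8 fell by 0.91 and Wfs1 rose by 0.49. Summed over each list, control sgLacZ and epileptic sgLacZ libraries overlapped for excitatory neurons (3350 to 3990 and 3610 to 5600 CPM), astrocytes (1260 to 1290 and 1190 to 1620), microglia (281 to 330 and 243 to 419) and CA pyramidal cells (589 to 671 and 562 to 691). None of the markers of neurons at large (0 of 8), dentate granule cells (0 of 6), oligodendrocytes (0 of 6), their precursors (0 of 4), vessels (0 of 6), choroid plexus (0 of 6) or thalamus (0 of 6) was called. The thalamus, which borders the hippocampus and is rich in T-type channels, gave summed marker levels of 79.6 to 159 CPM in control sgLacZ, 88.5 to 273 in epileptic sgLacZ and 63.9 to 177 in epileptic sgKcna1 libraries. The medians were 109, 105 and 91.6 CPM in the same order. Within the epileptic sgLacZ group, replicate 4 was the highest for Tcf7l2, Prkcd, Slc17a6, Plekhg1 and Zic1, and replicate 8 for Lef1. Replicate 4 was also the highest of its group for most of the channel genes, and this link was not tested. Summed choroid plexus markers ranged from 1200 to 12500, 4430 to 11500 and 292 to 7830 CPM in the same order of groups. The choroid plexus list had a median log2 fold change of 0.866 in epileptic sgLacZ against control sgLacZ mice. In epileptic sgKcna1 against epileptic sgLacZ mice its median was -1.01. None of its genes was called in either comparison.

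The 17 libraries differed in depth and in the summed levels of cell type markers. As a description over them, the genes that varied most like Cacna1g and Cacna2d1 were found after each group's mean was subtracted. For Cacna1g, the gene with the smallest P in the first comparison, they were Pde4a (Pearson r = 0.957), Sugp2 (0.951) and Kif1a (0.950). For Cacna2d1, which had the smallest P in the second, they were Pvrl1 (0.901), Apaf1 (0.894) and Scml4 (0.890). These values were across libraries within groups and carry no test.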

How the data were processed

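RNA-seq was measured in 17 hippocampal libraries. The authors aligned reads to mm10 with STAR 2.7 and deposited counts of reads per gene, not normalized, with 3 counts per gene (unstranded and each strand). Adding both strand counts gives reads that overlapping genes lose in the unstranded count. The labels name a kit without strand information and the methods a stranded one; the unstranded counts were used. The annotation release is not given in the sources used here. Symbols were matched to 32620 of 55450 genes (89.7% of those tested). Coordinates are from RefSeq GRCm38.p6 (mm10), and transcript lengths from GENCODE M1, looked up by gene identifier. Groups were taken from the labels.

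Counts were tested in R 4.3.3 with edgeR 4.0.16 (filterByExpr, TMM scaling, glmQLFit and glmQLFTest, all 17 libraries, no covariate), two-sided, with Benjamini-Hochberg adjustment over 17615 genes and a threshold of 0.05. CPM are TMM-scaled, and 3 reads equal 0.102 to 0.280 CPM, a floor that covers counting error only. Pairs of libraries of a group differed by more than sampling noise (chi-square per degree of freedom 8.67 to 220.2 over 40 pairs). On simulated counts for the first comparison, with 17415 genes tested, 60.5% of 195 changed genes were recovered with 5 false calls. Genes were drawn independently there, without shifts shared by a whole library, so these false calls do not measure error in the real libraries. Alternatives used summed strand counts, DESeq2 1.42.0, its size factors, no filter, limma 3.58.1 voom with quality weights, covariates, fewer libraries and coding length.

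The 10 genes and all lists were chosen with earlier results of these data known. All 10 genes are named, with values in every library for those called. Other subunits were named if tested, and partners, calcium-handling genes and markers if past the threshold. Some markers that did not pass were named beside them, by no fixed rule. The 3 most similar genes were taken by Pearson r of log2 CPM (prior count 2).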

Additional observations from a re-analysis of the deposited data

Results flagged for a closer look

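Within groups, 5 of the 30 sets of values of the 10 genes held a library far from the rest (gap to the nearest library over the group's range, above Dixon's 95% critical value). Chance flags about 1 in 20 groups, and the sets share libraries. Epileptic sgLacZ replicate 4 stood out for Cacna1a (122.2 CPM) and Cacna2d2 (71.9 CPM). Epileptic sgKcna1 replicate 12 stood out for Cacna1d (27.3 CPM) and Cacna2d2 (28.6 CPM). Epileptic sgKcna1 replicate 1 stood out for Cacna1b (66.3 CPM). Replicates 4 and 12 are also the libraries with the smallest and the largest share of unmapped reads, and the part this played was not tested.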

How the results depend on the processing

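No paired analysis was possible because the groups share no replicate numbers. In epileptic sgLacZ against control sgLacZ mice, 1940 genes were called. The count was 3382 with DESeq2, 7301 with voom and quality weights, 428 with a covariate for unmapped reads, 516 with one for sex, 3045 with only the 2 groups, 3106 without epileptic sgLacZ replicate 4 and epileptic sgKcna1 replicate 12 together, and 0 to 5526 with 1 library left out. Of the 10 genes 3 were called, 4 with strand counts added, DESeq2 or no filter (the fourth being Cacna1b), 6 with voom, 0 with either covariate and 0 to 7 with 1 library left out. Of the β and γ genes 1 was called, 0 with DESeq2 size factors or either covariate, 4 with DESeq2, 8 with voom, 5 with only the 2 groups or both libraries left out, and 0 to 6 with 1 library left out. Between the epileptic groups 0 genes were called, 115 with DESeq2, 1 with no filter, 12 with voom and 0 to 1508 with 1 library left out, the highest without epileptic sgLacZ replicate 5, where 1 of the 10 genes was. Against control, epileptic sgKcna1 mice had 0 genes called, 36 with DESeq2, 71 with voom, 266 with the covariate for unmapped reads, 88 with both libraries left out and 0 to 14 with 1 left out, and 1 β or γ gene under the covariate for unmapped reads and with both libraries left out. The cause of these shifts was not tested.

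Signs turned for 4 genes, in values that were not called. In the first comparison Cacna1a had log2 fold changes of -0.0196 with voom, -0.0306 with both libraries left out and -0.0274 to 0.103 with 1 library left out. In the second it had 0.0012 with the sex covariate and -0.133 to 0.0305 with 1 library left out, and Cacna1d -0.388 to 0.0025. In the third Cacna1a had 0.0179 with strand counts added, 0.00193 with no filter, 0.0112 with the sex covariate and -0.0774 to 0.045 with 1 library left out. Cacna1c had -7.65e-05 with DESeq2 size factors, -2.19e-05 with DESeq2, -0.0182 with voom and -0.0812 to 0.0596 with 1 library left out. Cacna1d had -0.0339 with strand counts added, -0.0403 with both libraries left out and -0.0434 to 0.27 with 1 left out, and Cacna2d2 -0.0599 and -0.0626 to 0.329 under the last pair of these settings. Low counts kept Cacna1s, Cacna1f and Cacng1 from being tested, and the strand counts of Cacna1s added up to 8.25 times its unstranded count.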
